A study of Mus musculus with 2 samples.

Results

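The mevalonate arm of cholesterol synthesis was examined here through 8 of its enzyme genes, Acat2, Mvk, Pmvk, Idi1, Fdps, Ggps1, Fdft1 and Sqle, in regenerating mouse livers that were wild-type (WT) or null for PPARβ (KO). The genes were chosen by name, as enzymes of the pathway, with earlier results of these data known. All 8 were found by symbol among the 33225 gene symbols of the deposited expression table, each in a single row that its authors marked as tested. Both libraries came from male mice with an age of 4 months and a C57BL/6 background, whose livers had been taken 48 hr after partial hepatectomy (PH), a surgery that removes most of the liver and starts its regrowth. The mice had free access to food. There was 1 RNA-sequencing library of WT liver and 1 of KO liver, so no value below carries an error between mice, and genotype cannot be told apart from anything else that differed between the animals of the libraries. Neither the number of animals in a library nor the kind of null allele is given in the sources used here.

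Cells build isoprenoids and sterols from acetyl-CoA by way of mevalonate. A thiolase and an HMG-CoA synthase first join acetyl-CoA units, and a reductase then makes mevalonate. Kinases and a decarboxylase turn mevalonate into isopentenyl diphosphate, which an isomerase and farnesyl diphosphate synthase build into farnesyl diphosphate. At this branch point squalene synthase leads into sterols, while other enzymes take farnesyl diphosphate toward protein prenylation, ubiquinone and dolichol. The liver is a main site of cholesterol synthesis, and transcription of most of the sterol-directed enzymes is known to be driven by the factor SREBP2 together with partners such as NF-Y and Sp1. Of the enzymes between the thiolase and squalene epoxidase, only the 8 named above are described, together with Hmgcs1 where stated, and the others are not analysed here.

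The mRNA of 7 of the 8 enzymes was lower in the KO library by more than 2-fold, and none was higher. The exception was Ggps1, the enzyme that leads away from sterols. Levels are given in FPKM, that is, fragments counted per exon kilobase and per sequenced library size, which allows levels of different genes to be compared. Among the 11724 gene symbols whose FPKM averaged 1 or more over the 2 libraries, 8.23% were lower in KO by 2-fold or more and 1.71% were higher by 2-fold or more. The median log2 KO/WT of the 8 enzymes was -1.94, with a pseudocount of 0.1 FPKM, whereas that of all 11724 genes was -0.24. Since 75.6% of all genes were lower in KO, each log2 KO/WT is also given as centred, which means after subtraction of the all-gene median on the scale of the libraries. The centred median of the 8 enzymes was -1.70. Over the 8 enzymes the values summed to 679 FPKM in WT and to 163 FPKM in KO, which is a WT/KO ratio of 4.18. In whole-liver RNA, fewer cells of a type and less RNA per cell cannot be told apart.

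**Figure D1:**
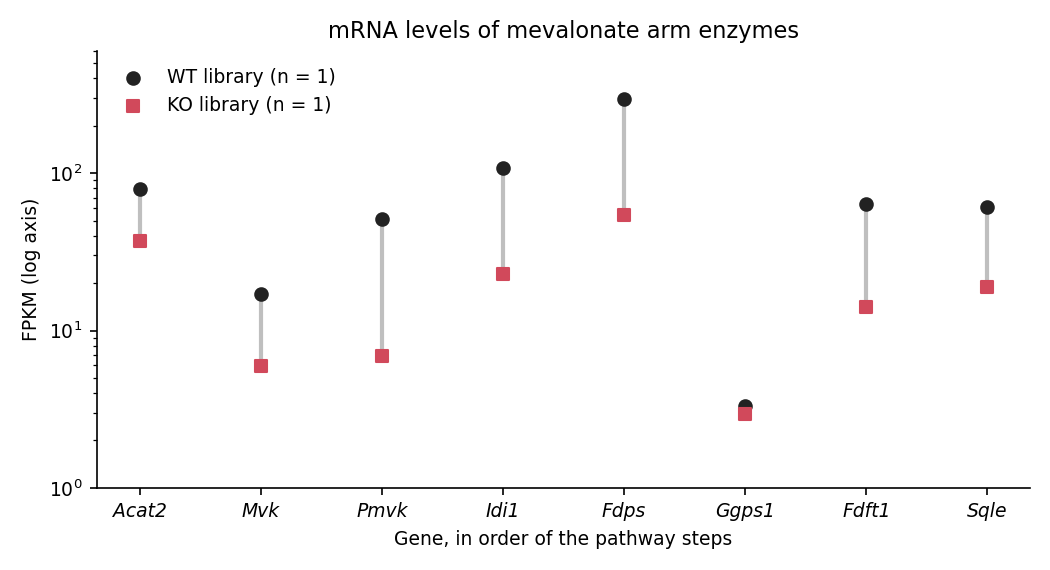
Level of each enzyme mRNA in the WT library (black circles) and the KO library (red squares), in FPKM on a log axis, with the genes in order of the pathway steps. The KO point lies clearly under the WT point for every gene but Ggps1, whose points (3.29 and 2.96 FPKM) nearly coincide.

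Acat2 encodes the cytosolic thiolase that condenses acetyl-CoA units into acetoacetyl-CoA, and it should not be confused with the sterol esterifying enzyme that has carried the same short name. On the NCBIM37 (mm9) build, to which all gene positions below belong, it spans 13135756 to 13153613 on chromosome 17, minus strand. Its level was 79.7 FPKM in WT and 37.0 FPKM in KO. This is a WT/KO ratio of 2.15 (95% interval 2.08 to 2.23). Such intervals are exact Clopper-Pearson intervals from the numbers of fragments estimated for each gene, and they cover counting error only. Acat2 had the smallest difference among the 7 enzymes past 2-fold, and after centring its ratio was 1.83, which is short of 2-fold.

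The adjacent genes of Acat2 include a paralog, Acat3. Acat3 had 105.9 FPKM in WT and 95.2 FPKM in KO, with a WT/KO ratio of 1.11. The Acat3 row and the row of Tcp1, a chaperonin subunit with 90.5 FPKM in WT and 74.9 in KO, span the same locus. Because Acat2 and Acat3 are close copies, the share of reads that the authors' counting gave to each is uncertain. Hmgcs1, the HMG-CoA synthase of the next step, was listed at 0 in both libraries on unplaced contigs, so that no level or ratio of it can be given.

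Mvk and Pmvk are the kinases that phosphorylate mevalonate in succession. Mvk, on chromosome 5 (plus strand, 114894278 to 114910600), had 17.1 FPKM in WT and 5.98 FPKM in KO. Its ratio was 2.87 (95% counting interval 2.64 to 3.11). Pmvk, on chromosome 3 (plus strand, 89263040 to 89272935), had 51.3 FPKM in WT and 6.88 FPKM in KO. Its ratio of 7.45 (95% counting interval 6.75 to 8.23) was the largest of the 8 enzymes, and its KO level was 13.4% of the WT level. The Pmvk mRNA was 2.99 times as abundant as the Mvk mRNA in WT, but only 1.15 times as abundant in KO. Of all 11724 genes, 1.58% had a lower log2 KO/WT than Pmvk and 4.20% a lower one than Mvk.

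Idi1 encodes isopentenyl diphosphate isomerase, which supplies dimethylallyl diphosphate, the starter of chain growth. It occupies chromosome 13 between 8884852 and 8891641 (plus strand). Its level was 107.5 FPKM in WT and 23.0 FPKM in KO, and its WT/KO ratio was 4.67 (95% counting interval 4.51 to 4.84). Idi2, its paralog, was listed at 0 in WT and at 0.00757 FPKM in KO, which is under the value of 3 fragments and gives no ratio. Nearly all isomerase mRNA measured in either library was that of Idi1.

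Fdps, which encodes farnesyl diphosphate synthase, had the highest level of the 8 enzymes in both libraries. The gene occupies 88897514 to 88905881 of chromosome 3 (minus strand), with 295 FPKM in WT and 53.9 FPKM in KO. The ratio was 5.48 (95% counting interval 5.29 to 5.67). Fdps mRNA made up 43.5% of the summed FPKM of the 8 enzymes in WT and 33.2% in KO. About 19323 fragments in WT and 3704 in KO stood behind these values, which makes Fdps the most deeply counted of the group in WT.

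Farnesyl diphosphate is used next by Ggps1 or by Fdft1, and these genes differed in their ratios. Ggps1 encodes geranylgeranyl diphosphate synthase, which provides the longer isoprenoid that prenylates Rab and other small GTPases. The gene, on chromosome 13 (minus strand, 14144637 to 14155668), had 3.29 FPKM in WT and 2.96 FPKM in KO. Its ratio of 1.11 had a 95% counting interval of 0.966 to 1.28, so a difference was not detectable at this depth, and the interval leaves out any 2-fold difference. After centring, the WT/KO ratio of Ggps1 was 0.943, on the other side of 1. Among all genes, 60.8% had a lower log2 KO/WT than Ggps1.

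Fdft1 encodes squalene synthase, the first enzyme given over to sterols. Its annotated gene body covers 63763990 to 63796630 of chromosome 14, minus strand. Fdft1 had 64.1 FPKM in WT and 14.0 FPKM in KO, with a ratio of 4.56 (95% counting interval 4.36 to 4.78). The Fdft1 mRNA was 19.5 times as abundant as the Ggps1 mRNA in WT and 4.74 times as abundant in KO. This ratio between genes of the same library does not change with the scaling of the libraries.

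Sqle encodes squalene epoxidase, which introduces the oxygen that later becomes the hydroxyl group of cholesterol. Its annotated gene body covers 59146632 to 59162747 of chromosome 15, plus strand. It had 61.0 FPKM in WT and 18.8 FPKM in KO, with a ratio of 3.24 (95% counting interval 3.14 to 3.35). Fdft1 and Sqle mRNAs were at nearly the same level in WT, with an Fdft1/Sqle ratio of 1.05, and this ratio was 0.746 in KO.

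**Figure D2:**
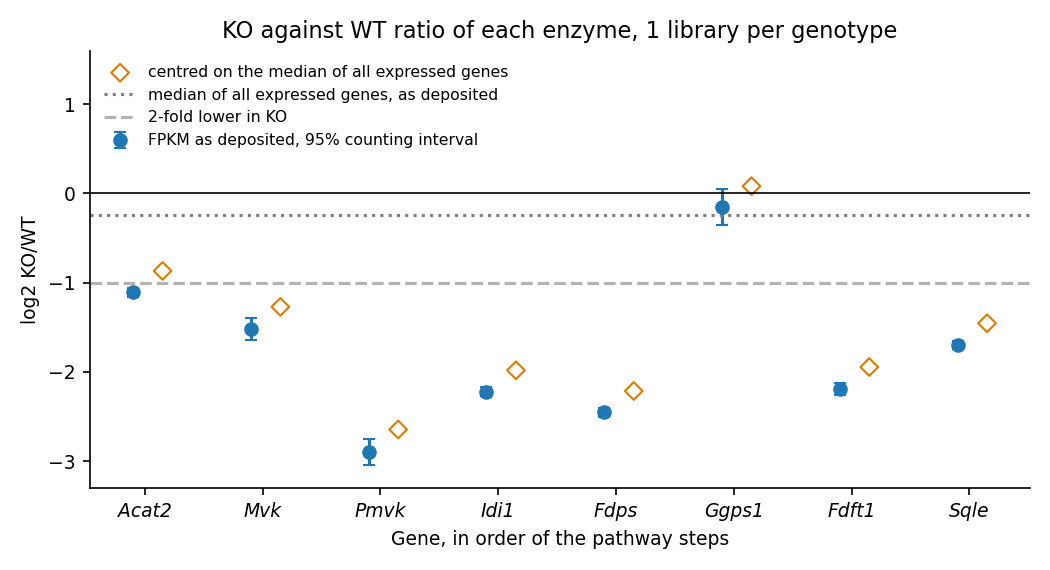
Log2 KO/WT of each enzyme in order of the pathway steps, from the FPKM as deposited (blue circles, bars for the 95% counting interval) and after centring on the median of all expressed genes (orange diamonds). Ggps1 lies at the dotted all-gene median, and centring lifts Acat2 alone across the dashed 2-fold line.

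The order of the enzymes by level was similar but not the same in the libraries. From the highest to the lowest, it ran Fdps, Idi1, Acat2, Fdft1, Sqle, Pmvk, Mvk and Ggps1 in WT. In KO it ran Fdps, Acat2, Idi1, Sqle, Fdft1, Pmvk, Mvk and Ggps1. Idi1 and Acat2 had changed places, as had Fdft1 and Sqle, while Fdps stayed first and Pmvk, Mvk and Ggps1 stayed last. Whether such neighbours differ beyond the spread between mice cannot be told from 1 library each. The highest level was 89.7 times the lowest in WT and 18.2 times the lowest in KO. The Acat2 mRNA was 1.55 times as abundant as the Pmvk mRNA in WT and 5.38 times as abundant in KO. The ratio of Fdps to Idi1 moved less, from 2.75 in WT to 2.34 in KO.

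Fdps and Idi1, first and second by level in WT, had the largest ratios after Pmvk, which was sixth by level. Acat2, the third most abundant enzyme mRNA in WT, had a smaller ratio than Mvk, the seventh. Between 1.58% and 6.96% of all expressed genes had a lower log2 KO/WT than the 7 enzymes past 2-fold. Their median log2 KO/WT was -2.18.

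**Figure D3:**
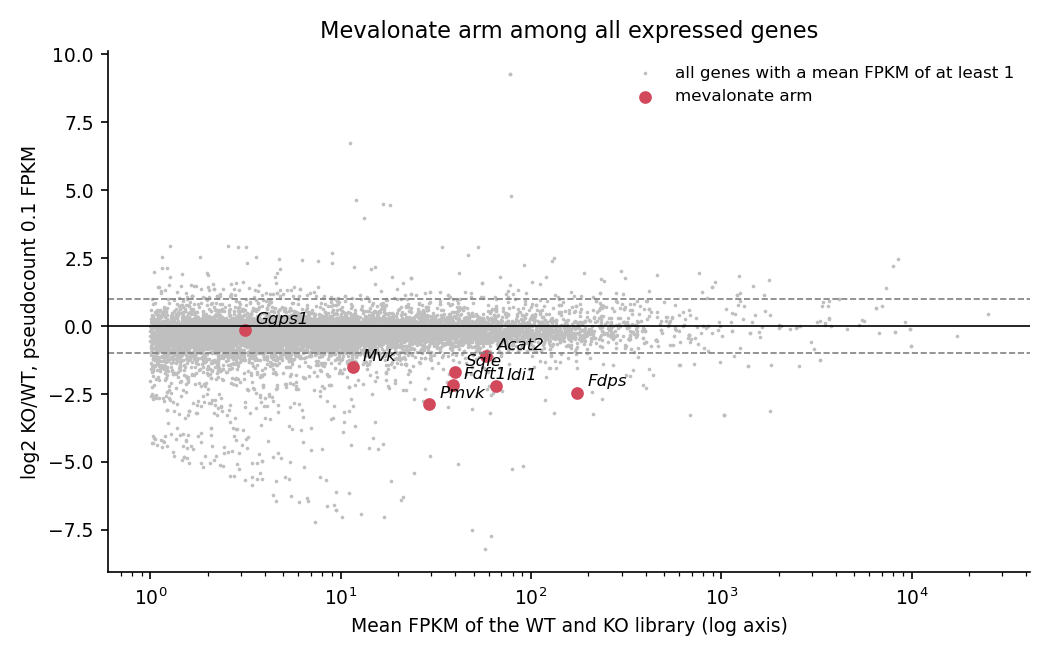
Log2 KO/WT against mean FPKM (log axis) for all 11724 genes that average 1 FPKM or more (grey) and the 8 enzymes (red), with dashed lines at a 2-fold difference. Ggps1 lies within the band that holds most genes, Acat2 just under the lower line, and the other 6 enzymes further below it.

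Some of the rows hold sequence that belongs to other genes as well. The Fdft1 locus spans 63741302 to 63796630 and takes in Ctsb, the gene of the protease cathepsin B. Exons of Ctsb cover 769 nt, or 26.9%, of the longest annotated Fdft1 transcript. Ctsb had 98.7 FPKM in WT and 69.2 FPKM in KO, with a ratio of 1.43, so the levels of these genes may share reads. The Ggps1 locus takes in Arid4b, whose exons cover 170 nt, or 7.18%, of the longest Ggps1 transcript. The Sqle locus runs on to 59433238 over E430025E21Rik, with 8.76 FPKM in WT and 7.52 in KO, and over Nsmce2, with 5.78 in WT and 4.18 in KO, and neither overlaps an exon of Sqle. For the other 5 enzymes no exon of another gene overlapped the longest transcript. Whether the authors counted reads by strand is not given in the sources used here.

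Mvk and Ggps1 each share their upstream region with another gene that is transcribed the opposite way, and these neighbours were picked after their values had been seen. Mmab, which encodes an adenosyltransferase of the vitamin B12 pathway, starts 209 bases from Mvk. It had 13.4 FPKM in WT and 3.70 FPKM in KO, with a ratio of 3.62, beside 2.87 for Mvk. Arid4b, which encodes a chromatin factor, overlaps the 5′ end of Ggps1. It had 5.15 FPKM in WT and 4.23 FPKM in KO, with a ratio of 1.22, beside 1.11 for Ggps1. The Mvk pair was therefore past 2-fold on both sides and the Ggps1 pair on neither.

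Fdps and Pmvk, the enzymes with the largest ratios, lie on the same chromosome, 357 kb apart. Of the 20 expressed gene symbols between them 2 were lower in KO by 2-fold or more. These were Cks1b, a cell cycle gene with 15.7 FPKM in WT and 5.16 in KO, and Gm15998, with 2.37 and 0.108, both named after their values had been seen. The symbols are not all separate local values. U6 was summed over all rows of that name, and Clk2 and Scamp3, Lenep and Flad1, and Shc1 and Pygo2 have equal values within each pair. The share of all expressed genes lower by that much was 8.23%. The median log2 KO/WT of these 20 symbols was -0.20, close to that of all genes.

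Promoter sequence was examined, and it is printed for the bidirectional Mvk region and the Idi1 promoter. Both belong to genes that were lower in KO. RefSeq windows of the GRCm38.p6 build, from 250 bases before to 50 bases after an annotated start, were at hand for 5 of the 8 enzymes, namely Acat2, Mvk, Pmvk (2 starts), Idi1 and Ggps1. Fdps, Fdft1 and Sqle were not analysed here in this respect. The 190 bases between the Mmab and Mvk genes, chr5:114444074-114444263, and the 250 bases upstream of Idi1, chr13:8885356-8885605, are given on the plus strand, on which Mvk and Idi1 are transcribed. Of the enzymes past 2-fold that have a window, Mvk and Idi1 held the most CCAAT boxes. Their sequences do not stand for the others. Pmvk and Acat2, also lower past 2-fold, and Ggps1, with 3 boxes, are not printed. Capitals mark the CCAAT box, the motif bound by NF-Y, which on the opposite strand reads ATTGG.
Mvk: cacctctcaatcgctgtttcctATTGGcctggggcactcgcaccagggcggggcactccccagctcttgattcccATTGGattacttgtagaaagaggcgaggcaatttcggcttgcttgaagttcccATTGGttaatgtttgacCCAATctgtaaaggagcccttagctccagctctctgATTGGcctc
Idi1: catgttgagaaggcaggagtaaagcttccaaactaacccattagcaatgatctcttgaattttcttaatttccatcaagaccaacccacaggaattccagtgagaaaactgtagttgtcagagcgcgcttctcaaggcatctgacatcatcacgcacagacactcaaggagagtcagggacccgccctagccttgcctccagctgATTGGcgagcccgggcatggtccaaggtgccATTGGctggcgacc

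The Mvk window held 5 CCAAT boxes, which begin at -173, -120, -67, -50 and -14 bases from the annotated start. These positions are counted from the start of the window, whose upstream part ends at 114444268. The printed Mvk stretch ends earlier, at 114444263, so the positions cannot be counted from its last base. Of these, 4 read ATTGG on the plus strand and 1 reads CCAAT. Such a number was rare, as 89 of 32851 RefSeq promoter windows (0.271%) held 5 or more, while 37.4% held at least 1. The Idi1 window held 2 boxes, at -45 and -14. Ggps1, whose mRNA differed little, held 3 boxes, and 3.37% of all windows held 3 or more. One start of Pmvk had 1 box, at -136, and its other start had none, as was the case for Acat2. The Pmvk window without a box (chr3:89459321-89459570) lies downstream of the one with it (chr3:89454291-89454540). It is therefore inside the gene as transcribed from the upstream start. Which start these livers used was not tested. Of the 5 enzymes with a window, 4 held a box in at least 1 window, Ggps1 among them. Fdps, Fdft1 and Sqle had no window, so no conclusion is drawn for the enzymes past 2-fold as a group.

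The GC box GGGCGG, which Sp1 can bind, occurred 2 times in the Mvk window and 1 time each in the Idi1 and Acat2 windows, and 35.7% of all windows held it. The sterol response element core TCACNCCAC, the E-box CACGTG and the nuclear receptor element AGGTCA were found in none of the 6 windows of these enzymes, on either strand. The shares of all windows that held them were 1.24%, 7.15% and 16.3%. A match describes only the letters of the window, and the absence of one says only that these letters do not occur there.

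**Figure D4:**
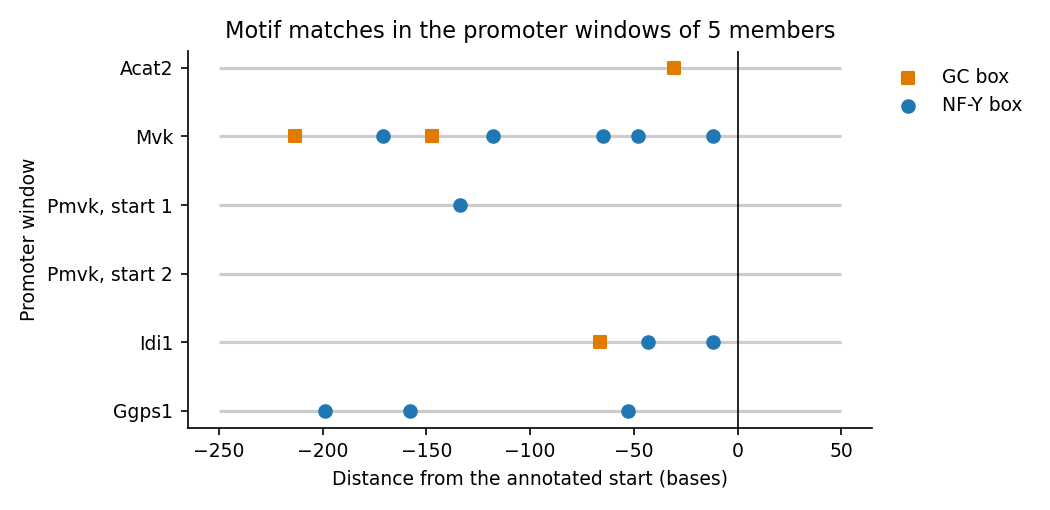
Positions of GC boxes (orange squares) and CCAAT boxes, labelled NF-Y box (blue circles), in the 6 promoter windows, in bases from the annotated start at 0. Mvk carries 5 NF-Y boxes, Ggps1 carries 3 and Idi1 carries 2.

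Most of the enzymes that act after Sqle, from lanosterol to cholesterol, had values like those of the sterol-directed mevalonate enzymes. Of the 11 genes of these later steps 7 were lower in KO by 2-fold or more and none was higher, beside 8.23% and 1.71% of all expressed genes. All 11 lay on the lower side, as did 75.6% of all genes. Their median log2 KO/WT was -1.75, against -1.94 for the 8 mevalonate enzymes and -0.24 for all genes. Among the most abundant were Sc5d, a sterol desaturase (353 FPKM in WT and 65.1 in KO), Ebp, a sterol isomerase (222 and 123), and Msmo1, a C4-methyl oxidase listed as Sc4mol (189 and 51.1). The ratios of these 3 genes ran from 1.81 for Ebp to 5.42 for Sc5d. The ratio of Ebp lay between that of Ggps1, 1.11, and that of Acat2, 2.15, the lowest of the mevalonate enzymes past 2-fold.

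Genes that use isoprenoids outside the sterol pathway were closer to Ggps1. These 18 genes make dolichol and the ubiquinone tail, modify tRNA, or attach and process prenyl groups on proteins. In this list 2 genes were lower in KO by 2-fold or more, Dhdds, a dolichol synthase subunit (38.6 FPKM in WT and 16.9 in KO, in a row that also names Hmgn2), and Pdss1, a subunit of the ubiquinone tail synthase (4.79 and 2.14). This is a share of 2 in 18, beside 8.23% of all expressed genes, and no gene of the list was higher by 2-fold or more. Neither of the 2 was past 2-fold after centring. The median log2 KO/WT of the list was -0.18, and centring moved it to 0.05, so the direction of the list depends on the scaling. The protease Zmpste24 had 37.6 FPKM in WT and 32.6 in KO, the farnesyltransferase subunit Fntb 34.7 and 29.7, and the geranylgeranyl transferase subunit Rabggtb 26.2 and 24.7. The rows of these 3 genes also name SNORA18, Churc1 and Snord45c, in that order.

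Among 10 genes that sense or move sterols, 3 were lower in KO by 2-fold or more and 1 was higher, beside 8.23% and 1.71% of all expressed genes. After centring 2 were lower and 1 was higher. The median log2 KO/WT was -0.50, against -0.24 for all genes. Insig1, an anchor of the SREBP escort protein whose own gene is a known SREBP target, had 205 FPKM in WT and 31.3 in KO, with a ratio of 6.53. Insig2, a related anchor, went the other way, with 116 FPKM in WT and 368 in KO. Srebf1, which encodes the SREBP1 factors, had 46.6 FPKM in WT and 9.21 in KO, and Scap, the escort protein, had 31.9 and 22.8. Srebf2, the gene of SREBP2, had 19.1 FPKM in WT and 13.3 in KO, which did not reach 2-fold. Stard4, a sterol carrier with 29.5 FPKM in WT and 13.3 in KO, was the third gene past 2-fold, and it fell short of it after centring. Stard4 and Srebf2 are named here after their values had been seen.

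**Figure D5:**
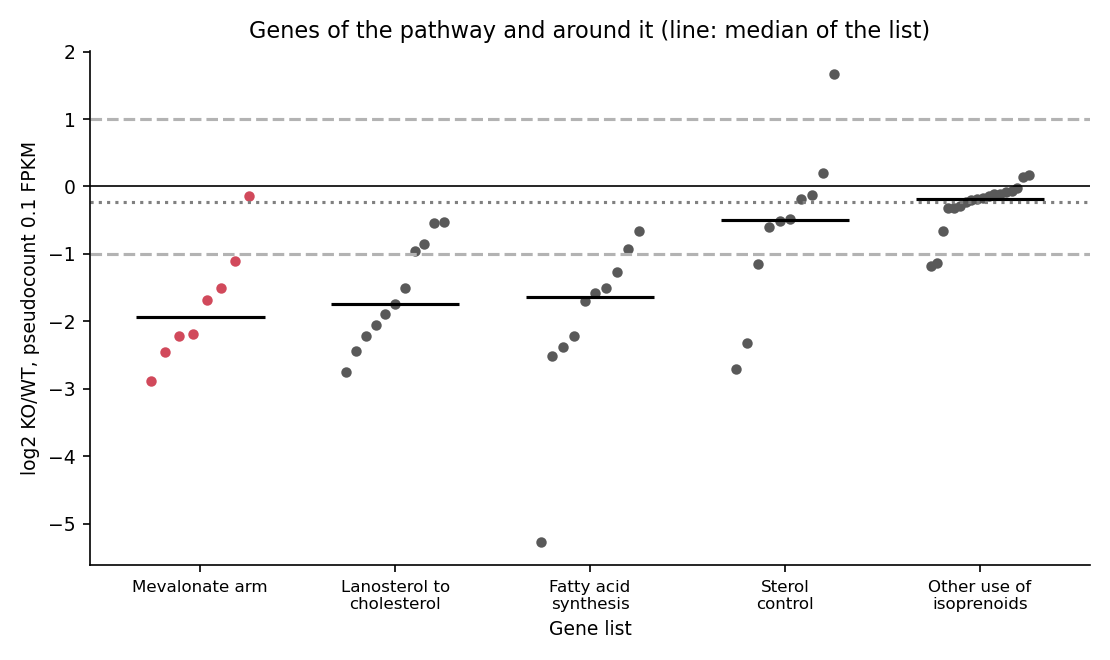
Log2 KO/WT of each gene of the mevalonate arm (red) and of 4 lists of related genes (dark grey), with bars at the list medians, a dotted line at the all-gene median and dashed lines at a 2-fold difference. The mevalonate, lanosterol and fatty acid lists lie mostly under the lower dashed line, and the isoprenoid list lies around the all-gene median.

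The libraries were similar in depth, and the summed markers of most cell types other than hepatocytes were lower in KO, as were 75.6% of all genes, for which the median WT/KO ratio was 1.18. An FPKM of 1 on a transcript of 1 kb rested on an estimated 53.1 fragments in WT and 55.7 in KO. Ppard, the targeted gene, had 2.67 FPKM in WT and 2.42 in KO, which is a ratio of 1.10, so the genotypes could not be distinguished by the mRNA of the whole locus. Hepatocyte markers, led by Apoa1 and Ttr, summed to 10310 FPKM in WT and 11041 in KO over 7 of 8 genes with an estimate, of which 4 were higher and 3 lower in KO. Past 2-fold among these were Cps1, lower with 1597 FPKM in WT and 743 in KO, and Cyp2e1, higher with 1039 and 2319, both named after their values had been seen. Macrophage markers, led by Cd5l and Clec4f, summed to 60.8 and 38.5 FPKM and were lower in KO for 7 of 8 genes, with a centred median log2 KO/WT of -0.57. The sums in WT and KO were 45.6 and 33.8 FPKM for endothelial (Clec4g, Stab2), 27.1 and 14.3 for stellate (Reln, Col1a1), and 29.8 and 25.7 for cholangiocyte markers (Spp1, Sox9). They were 295 and 252 FPKM for erythroid (Hba-a1, Hbb-b1), 12.9 and 6.91 for neutrophil (S100a8, S100a9), and 0.391 and 0.280 for lymphocyte markers (Cd79a, Cd3e). Over the genes that average 1 FPKM or more, the centred medians were -0.38 for endothelial, -0.37 for stellate and -0.66 for neutrophil markers. They were 0.10 for cholangiocyte and -0.06 for erythroid markers. The medians of this last pair lay near that of all genes, but not all their single genes did. Krt19 of the cholangiocyte markers was lower, with 1.72 FPKM in WT and 0.559 in KO. So was Krt7, which averages under 1 FPKM, with 1.12 and 0.360. The cholangiocyte sums are mostly Spp1, with 24.5 FPKM in WT and 22.7 in KO. Alas2 of the erythroid markers was higher, with 20.6 FPKM in WT and 37.5 in KO. Only Col1a1 of the stellate markers was past 2-fold, with 8.56 FPKM in WT and 1.75 in KO, and it weighs heavily in their sums. Csf1r of the macrophage markers (3.98 and 1.64), Lyve1 of the endothelial markers (2.72 and 1.17) and Krt19 were also lower past 2-fold. Lyve1 fell short of it after centring. Csf1r, Lyve1, Krt19, Krt7 and Alas2 are named here after their values had been seen. Of the neutrophil markers, Ly6g and Mpo were listed at 0 in both libraries. Pancreatic acinar markers (Cela1, Amy2a5) summed to 8.77 and 18.8 FPKM, nearly all of it Cela1, with 3 of 5 genes at 0 in both libraries. The part of these other cells in the lower enzyme mRNAs was not tested.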

How the data were processed

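RNA of 1 WT and 1 KO regenerating liver sample was sequenced on an Illumina instrument after TruSeq library preparation. The labels name paired-end and the methods single-end reads. The FPKM values were computed by the authors, who aligned reads with TopHat 2.0.0 to NCBI37 (mm9), assembled transcripts with Cufflinks 1.3.0 and ran Cuffdiff, which gave 1 value per locus and library. The deposited table held 38016 rows, of which 21 marked HIDATA were left out as failed estimates. Its columns of fold changes, test statistics, p-values and q-values hold the authors' own comparison and were not used.

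Rows were matched by symbol, rows of the same symbol were summed, and a row that names several genes gave its value to each. Before log2 KO/WT was taken, 0.1 FPKM was added to each value as a pseudocount, so changes of low genes are understated. A gene was counted as lower or higher past a fold of 2 among symbols with a mean FPKM of at least 1. With 1 library per genotype there was no test across samples. The value of 1 fragment was read from the low FPKM of 2844 single-exon genes. Fragments per gene followed from the longest transcript in GENCODE vM1 (NCBIM37) and gave exact binomial 95% intervals. Fragments without molecular identifiers are not independent molecules, so these intervals cover counting error only, and errors in assigning fragments to loci come on top. The log2 KO/WT, the centring and the coverage of the intervals were tested on simulated counts with a known value per fragment. The matching of symbols, the estimate of fragments and the promoter matches were not part of that test.

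The members and lists were chosen with earlier results of these data known. Named were the 8 enzymes, Ppard, genes that overlap a member locus or share its row, the paralogs and the genes of neighbouring steps, the 4 genes with the highest mean FPKM of each other pathway list with any past 2-fold higher in KO, and 2 genes per marker list. Some genes that meet this rule are left out of the text. Other genes are said to be named after their values were seen. Alternatives covered the pseudocount, scaling, fold, filter on low FPKM and the handling of rows. The work was done in Python 3.11.15 with pandas 2.3.3, numpy 2.4.6 and scipy 1.17.1, and plots were drawn with matplotlib 3.10.9.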

Additional observations from a re-analysis of the deposited data

How the results depend on the processing

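With 1 library per genotype, no library could be left out, and the spread between mice was not measured. No paired analysis was possible because the labels give 1 sample per genotype and no pairing. The count of 7 enzymes lower by 2-fold or more became 6, without Acat2, after centring or with equal upper quartiles, and 5 at a fold of 3. It was 7 under the other alternatives. The median log2 KO/WT of the 8 enzymes, -1.94, became -1.70 after centring and -1.73 with equal upper quartiles. The share of all genes lower by 2-fold or more, 8.23%, was 5.04% with no filter on low FPKM and 4.99% at a mean FPKM of at least 10. It was 5.84% after centring, 8.62% without rows that name several genes and 8.27% for rows with a completed test. These 3 alternatives were chosen after seeing the data. At a fold of 3, with equal upper quartiles and under the remaining alternatives this share is not given. Those counts of enzymes therefore stand without a share of all genes to set beside them. Of 48 alternative WT/KO ratios of single enzymes 46 were above 1, and the other 2 were those of Ggps1, at 0.943 after centring and 0.965 with equal upper quartiles. Depth limits Ggps1 most, with about 413 fragments in WT and 390 in KO.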

Other observations

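Acat1, the mitochondrial thiolase that also joins acetyl-CoA units, had 102 FPKM in WT and 177 in KO, in a row that also names Cul5, whereas Acat2, the cytosolic thiolase, had 79.7 and 37.0 FPKM. Bdh1, the hydroxybutyrate dehydrogenase of ketone body metabolism, had 49.3 FPKM in WT and 111 in KO. The direction of both was opposite to that of Acat2.

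Enzymes and regulators of fatty acid synthesis, which draws on the same cytosolic acetyl-CoA, were lower in KO by 2-fold or more for 8 of 10 genes, beside 8.23% of all expressed genes. Their median log2 KO/WT was -1.64, against -0.24 for all genes. Scd1, a fatty acid desaturase, had 628 FPKM in WT and 210 in KO. Acly and Acss2, which supply cytosolic acetyl-CoA from citrate and acetate, had 118 and 105 FPKM in WT and 22.7 and 18.2 FPKM in KO. Thrsp, a gene that follows lipogenic signals, had 156 FPKM in WT and 3.95 in KO.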
